A study of Caenorhabditis elegans with 2 samples.

Results

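The 45 genes described here were a fixed list of Caenorhabditis elegans genes that build epidermal cell junctions, tie the epidermis to muscle and to the cuticle, fuse epidermal cells, form the apical extracellular matrix or carry out moulting. They were chosen by name, with earlier results of these data known. All 45 were found among the 19973 protein-coding genes of the 6 nuclear chromosomes. Binding of the GATA factor ELT-3 had been measured by chromatin immunoprecipitation with sequencing (ChIP-seq) in 2 biological replicates of 1 group. The material was whole larvae of the second larval stage (L2), males and females together, of strain OP75. Its genotype is unc-119(ed3) III; wgIs75, and its ELT-3 bears a GFP-FLAG tag at the C-terminus. Both replicates share these alleles and the tag, and the labels name neither the promoter of the transgene nor how the cultures were kept apart. The age of the larvae is given as unknown, and no control sample was analysed here.

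Each replicate's list and the list of both replicates pooled held 30000 regions, described as peaks together with background, and the authors' list thresholded by irreproducible discovery rate (IDR) held 33 regions. A region's signal value is the score the authors' peak caller gave it relative to a control alignment. Its scale is not stated, so it ranks regions within a list, with rank 1 the highest. The median signal value was 16.4 in the pooled list, 9.85 in replicate 1 and 9.53 in replicate 2, and the value at rank 1000 was 28.4, 17.4 and 17.3. A region belonged to a gene when its summit lay in the gene or up to 2000 bp upstream of it. The summit was the midpoint of the region in every region of every list. The number of reads in each library is unknown. With 1 group and no control samples, no test over samples was possible, and the counts below are descriptions. The 2 replicates show how far a value moves from one library to the other.

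The worm epidermis, or hypodermis, is a single layer of epithelium that secretes the collagen cuticle on its outer side and rests on the body wall muscle on its inner side. Its cells are held together by apical junctions, and hemidesmosome-like structures with intermediate filaments carry the pull of muscle through the cell to the cuticle. At each moult the layer secretes a new matrix, takes up sterols and old matrix by endocytosis, and releases the old cuticle with proteases and their inhibitors. ELT-3 is a GATA factor of this tissue, and GATA factors bind DNA words built around GATA.

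Some of the highest regions of the list are shown as sequence, because only part of them hold such a word. Those of dlg-1, let-805 and noah-2 were among the highest pooled regions, and that of mua-3 held the most TGATAA words among the pooled member regions in the 1000 highest. The last pair are the highest mlt-11 regions of each replicate, which lie apart in the same gene. Each runs 201 bp around the summit, 5′ to 3′ on the gene's coding strand, from the WBcel235 assembly of RefSeq, whose coordinates are those of the ce11 files. Capitals mark the word AGATAA, the word AGATAG, the word TGATAA or the word TGATAG on either strand. On the other strand the third of these reads TTATCA. Not printed is the intronic lrp-1 region at pooled rank 102, above those of noah-2 and mua-3. It held 3 occurrences of these words, 1 of them TGATAA. Of the 14 pooled member regions among the 1000 highest, 6 held at least 1 of these words.
dlg-1 intron, pooled list, chrX:5480220-5480420, + strand: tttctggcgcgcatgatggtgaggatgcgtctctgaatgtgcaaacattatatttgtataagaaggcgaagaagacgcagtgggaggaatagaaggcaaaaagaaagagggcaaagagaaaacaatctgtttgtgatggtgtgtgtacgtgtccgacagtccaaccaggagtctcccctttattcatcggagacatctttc
let-805 coding exon, pooled list, chrIII:2668824-2669024, + strand: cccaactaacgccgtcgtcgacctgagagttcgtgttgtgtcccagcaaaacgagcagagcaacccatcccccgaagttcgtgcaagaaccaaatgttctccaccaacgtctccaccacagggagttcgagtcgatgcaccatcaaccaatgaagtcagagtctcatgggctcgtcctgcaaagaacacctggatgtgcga
noah-2 coding exon, pooled list, chrIV:14093871-14094071, + strand: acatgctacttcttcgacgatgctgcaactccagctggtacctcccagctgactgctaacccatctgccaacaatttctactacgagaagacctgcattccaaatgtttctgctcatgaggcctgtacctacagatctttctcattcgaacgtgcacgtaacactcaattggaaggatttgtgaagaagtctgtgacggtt
mua-3 intron, pooled list, chrIII:10170342-10170542, + strand: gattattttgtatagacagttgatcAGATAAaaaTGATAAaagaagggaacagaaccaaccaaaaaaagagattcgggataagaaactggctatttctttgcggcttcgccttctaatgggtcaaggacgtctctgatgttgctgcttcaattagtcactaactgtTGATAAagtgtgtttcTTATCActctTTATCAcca
mlt-11 coding exon, replicate 1, chrV:20667824-20668024, + strand: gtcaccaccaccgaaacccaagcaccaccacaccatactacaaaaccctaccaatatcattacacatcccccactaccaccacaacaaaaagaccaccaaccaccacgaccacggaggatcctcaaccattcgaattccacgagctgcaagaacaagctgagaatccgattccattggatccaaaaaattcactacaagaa
mlt-11 coding exon, replicate 2, chrV:20668193-20668393, + strand: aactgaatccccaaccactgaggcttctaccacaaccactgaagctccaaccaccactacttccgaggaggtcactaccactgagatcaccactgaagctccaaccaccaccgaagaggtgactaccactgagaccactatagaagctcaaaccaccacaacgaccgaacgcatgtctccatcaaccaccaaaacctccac

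High regions lay in a small part of the list. In the pooled list 7 of the 45 genes had a summit among the 1000 highest regions (15.6%), namely dlg-1, let-805, lrp-1, noah-2, mua-3, bli-4 and vab-10. The background over all protein-coding genes was 5%. Replicate 1 gave 8 genes (17.8%, background 5.18%) and replicate 2 also gave 8 (background 4.97%), but 4 genes were in both, which were dlg-1, let-805, lrp-1 and mlt-11 (8.89%, background 0.956%). At dlg-1, let-805 and lrp-1 the same region was among the 1000 highest of the pooled list and of both replicates with summits within 150 bp (6.67% of the list, background 0.295%). No gene of the list had an IDR region, where the background was 0.12%. The authors' q-value was under 0.05 at none of the regions of these genes in any list. Few regions of any gene reached it, 15 of 30000 in the pooled list, 0 in replicate 1 and 15 in replicate 2. The lowest at these genes was 0.0649, at bli-3 in replicate 2. At the pooled regions of these genes among the 1000 highest, q ran from 0.211 at dlg-1 to 0.796 at vab-10. Nearly every gene had some region, 42 of 45 in the pooled list (background 74.2%), 44 in replicate 1 (background 74.5%) and 44 in replicate 2 (background 74.6%).

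Gene length is part of these counts. The genes with their upstream 2000 bp had a median length of 7470 bp against 4027 bp over all protein-coding genes, and the share of genes with a pooled summit among the 1000 highest ran from 2.22% at 2000 to 2500 bp to 30.1% at 30000 to 100000 bp. Each gene was therefore set among the protein-coding genes whose length, upstream part included, was between 0.8 times its own and the inverse of that ratio. Averaged over the 45, such genes of like length had a summit among the 1000 highest at 9.10% in the pooled list, 9.99% in replicate 1 and 9.81% in replicate 2, between the share of the list and that of all genes. For the same region in all 3 lists the like-length share was 1.17%. For a summit among the 1000 highest of both replicates it was 2.79%. For any region it was 87.7% in the pooled list, 88.2% in replicate 1 and 88.0% in replicate 2. The median over the 45 genes of the percentage of like-length genes with a lower best rank, called the percentile below, was 69.5 in the pooled list, 68.9 in replicate 1 and 60.4 in replicate 2. Percentiles above 90 were reached by 9 genes in the pooled list, 6 in replicate 1 and 8 in replicate 2. By construction about 90% of genes of like length lie below that mark. Percentiles above 75 were reached by 18, 17 and 14 genes in these lists, and above 50 by 31, 35 and 30. Among the 5000 highest regions the list had 23 genes in the pooled list (51.1%, like length 36.3%, background 21.8%), 27 in replicate 1 (60%, like length 36.9%, background 22.4%) and 18 in replicate 2 (40%, like length 36.3%, background 21.5%). At that rank replicate 2 was near the like-length share and replicate 1 was above it. Both replicates had 14 genes in common there (31.1%, like length 19.8%, background 8.26%). Among the 500 highest there were 5 genes in the pooled list (background 2.59%), 6 in replicate 1 (background 2.66%) and 6 in replicate 2 (background 2.46%). Among the 2000 highest there were 15 (background 9.71%), 14 (background 9.83%) and 13 (background 9.52%). For hmr-1 and vab-10 the comparison rests on 6 and 8 genes, since few are as long.

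**Figure D1:**
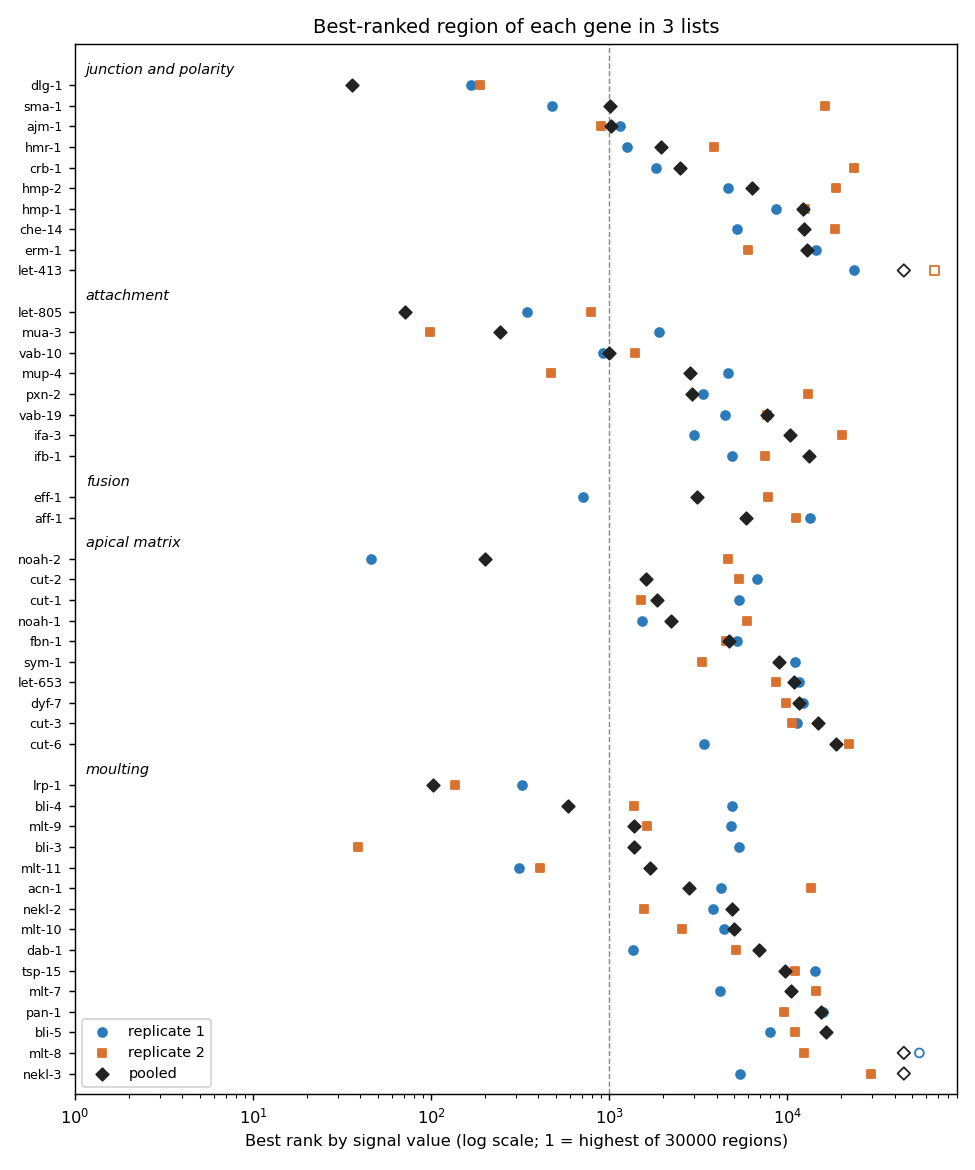
Best rank by signal value of each of the 45 genes (log axis, 1 the highest of 30000 regions) in the pooled list (diamonds), replicate 1 (circles) and replicate 2 (squares), by role. The dashed line marks rank 1000, and open symbols at the right mark a list with no region of that gene; dlg-1, let-805, lrp-1 and mlt-11 are left of the line in both replicates.

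**Figure D2:**
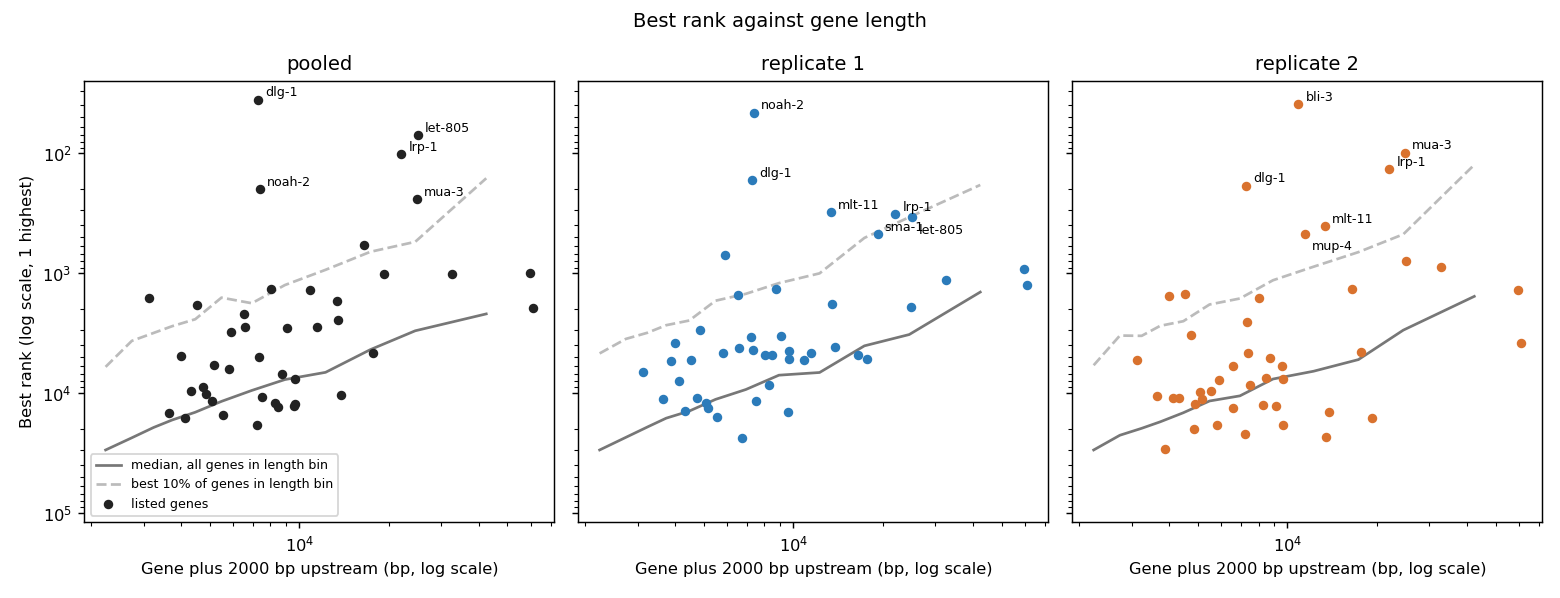
Best rank (log axis, highest at the top) against the length of the gene with 2000 bp upstream (log axis) for the 45 genes in each list. Lines give the median and the 10th percentile of best rank of all protein-coding genes by length bin. Above the 10th percentile line lie dlg-1 and lrp-1 in all 3 panels, and noah-2 in the pooled list and replicate 1.

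Among the 10 junction and polarity genes, dlg-1 stood highest. It encodes the Discs large scaffold protein, which assembles the apical junction with AJM-1. Its best region, at chrX:5480145-5480494 (ce11), lay in an intron 620 bp downstream of the gene start. The signal value there was 44.6 in the pooled list (rank 36), 22.0 in replicate 1 (rank 168) and 21.7 in replicate 2 (rank 187). The 2 replicates were close to each other here, and the gene stood above 99.8%, 99.0% and 98.8% of genes of like length in the 3 lists. The 201 bp around its summit held none of the words marked above. The next highest pooled region of dlg-1 had a signal value of 23.5 (rank 3211), so the gene's high value was that of 1 region.

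The other junction genes were lower or differed between replicates. For ajm-1, the coiled-coil partner of DLG-1, the best pooled region had a signal value of 28.3 (rank 1022). It lay in a 3′ UTR at chrX:9107311-9107660, with 12.1 in replicate 1 (rank 7291) and 17.6 in replicate 2 (rank 898). Replicate 1's best ajm-1 region was another, in an intron, with 17.1 (rank 1145), so the gene's best ranks in the replicates were 1145 and 898. For sma-1, the heavy beta-spectrin of the apical cortex, replicate 1's best region had a signal value of 19.3 (rank 477) in a coding exon, and replicate 2's best rank was 16151. Replicate 1's summit lay 11820 bp into the gene and that of the best pooled region (rank 1012) 11650 bp, farther apart than the 150 bp within which summits were called shared. The E-cadherin gene hmr-1 had best ranks of 1957, 1258 and 3849 in the pooled list, replicate 1 and replicate 2. Its catenin partners hmp-1 and hmp-2 had best pooled ranks of 12274 and 6357. The apical polarity gene crb-1 ranked 2482 in the pooled list, 1829 in replicate 1 and 23584 in replicate 2. The best pooled ranks of erm-1, an ezrin-type membrane linker, and che-14, a relative of Dispatched, were 12897 and 12352. The Scribble-type gene let-413 had 1 region in replicate 1 (rank 23636) and none in the pooled list or replicate 2. The median like-length percentile of these 10 genes was 67.4 in the pooled list, 64.1 in replicate 1 and 25.5 in replicate 2, so the replicates differed most for this group.

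Of the 8 attachment genes, let-805, mua-3 and vab-10 had a pooled summit among the 1000 highest. The gene let-805 encodes myotactin, a transmembrane protein of the attachment structures. Its best region, at chrIII:2668749-2669098, lay in a coding exon 10841 bp into a gene of 23030 bp, with signal values of 39.7 in the pooled list (rank 71), 20.3 in replicate 1 (rank 343) and 17.9 in replicate 2 (rank 787). Its like-length percentile was 99.0 in the pooled list and 90.3 and 81.0 in the replicates, so genes of like length with a higher region were more frequent in a single replicate. The sequence around that summit held none of the marked words, as at dlg-1.

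The mua-3 region was high in 1 replicate. MUA-3 is a transmembrane protein of the apical attachment sites. Its best pooled region, at chrIII:10170267-10170616 in an intron, had a signal value of 34.2 (rank 242), and replicate 2 had 23.7 there (rank 99) against 7.86 in replicate 1 (rank 26321). The 201 bp printed above held 4 TGATAA words, more than any other of the 14 pooled member regions among the 1000 highest, and 1 AGATAA. Replicate 1's best mua-3 region was another intronic one, with a signal value of 15.8 (rank 1907). For mup-4, which encodes a related transmembrane protein, replicate 2 had a region with a signal value of 19.1 (rank 473) in a coding exon. A second coding-exon region of mup-4 had 17.6 in replicate 2 (rank 878). Replicate 1 had no region within 150 bp of either, and its best rank in mup-4 was 4649.

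The spectraplakin gene vab-10, which spans 57568 bp, held 29 pooled regions, and its best had a signal value of 28.4 (rank 995), with 17.4 in replicate 1 (rank 1005) and 10.3 in replicate 2 (rank 11838). The replicates' own best regions of vab-10 lay elsewhere in its coding exons, with 17.6 in replicate 1 (rank 925) and 16.3 in replicate 2 (rank 1385). The peroxidasin gene pxn-2, active in basement membrane, had best ranks of 2893, 3366 and 13000 in the pooled list, replicate 1 and replicate 2. Best pooled ranks were 7718 for vab-19, a Kank-type protein of the attachments, and 10278 and 13202 for the intermediate filament genes ifa-3 and ifb-1. The median percentile of the 8 attachment genes was 76.1 in the pooled list, 70.1 in replicate 1 and 52.5 in replicate 2. The 2 fusion genes encode the proteins that merge epidermal cell membranes. For eff-1, replicate 1 had an upstream region, at -1738 bp from the gene start, with a signal value of 18.4 (rank 707), where the pooled list had 23.7 (rank 3092) and replicate 2 had 10.4 (rank 11392). The best pooled rank of aff-1 was 5883.

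In the apical matrix group, 1 of 10 genes had a pooled summit among the 1000 highest. The gene noah-2 encodes a zona pellucida domain protein of the matrix that covers the epidermis before each cuticle. Its best region, at chrIV:14093796-14094145 in a coding exon, had a signal value of 35.0 in the pooled list (rank 200) and 25.2 in replicate 1 (rank 46), but 11.4 in replicate 2 (rank 8342). This was the highest rank of any of the 45 genes in replicate 1, and replicate 2 did not share it. A second noah-2 region, 3834 bp into the gene, ranked 1166 in the pooled list, 1912 in replicate 1 and 4623 in replicate 2. The related gene noah-1 had best ranks of 2207, 1528 and 5949. The cuticlin genes cut-1 and cut-2 had best pooled ranks of 1855 and 1614, and cut-3 and cut-6 had 14757 and 18680. Best pooled ranks were 4683 for the fibrillin-related fbn-1, 10880 for let-653, 11632 for dyf-7 and 8910 for sym-1. The genes let-653 and dyf-7 also encode zona pellucida domain proteins, and sym-1 encodes a secreted leucine-rich repeat protein. The median percentile of the 10 genes was 60.5 in the pooled list, 70.4 in replicate 1 and 67.5 in replicate 2. Named after its value was seen, an IDR region at chrV:13411550-13411899 lay outside the window of cut-2, 3224 bp upstream of the gene. Its signal values were 56.2 in the pooled list (rank 10), 17.6 in replicate 1 (rank 934) and 38.2 in replicate 2 (rank 8).

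Among the 15 moulting genes, lrp-1 differed from all others in the number of its high regions. It encodes the megalin-type receptor by which the epidermis takes up sterols. The gene and its upstream 2000 bp, 21968 bp in all, held 18 regions in each list, of which 8 were among the 1000 highest of the pooled list, 4 of replicate 1's and 5 of replicate 2's. No other protein-coding gene had 8 in the pooled list, and the 265 genes of like length had at most 3 there, with a median of 0. Their maximum was 4 in replicate 1, as many as lrp-1, and 3 in replicate 2. In replicate 1, 3 genes had at least as many as lrp-1, itself included, and in replicate 2, 2 genes did. The others, named after their values were seen, were unc-89 in both replicates and dapk-1 in replicate 1. The 8 pooled regions had signal values from 28.6 to 38.0 and were spread from -1164 to 19252 bp from the gene start, 3 in introns, 4 in coding exons and 1 upstream. The highest, in an intron 14588 bp into the gene, had a signal value of 38.0 in the pooled list (rank 102), 19.9 in replicate 1 (rank 384) and 11.8 in replicate 2 (rank 7211). Of the 8, only the region 9901 bp into the gene was among the 1000 highest in both replicates. It had 17.6 (rank 927) and 17.4 (rank 944) against 32.3 in the pooled list (rank 374). The upstream region had 34.8 in the pooled list (rank 208), 17.3 in replicate 1 (rank 1062) and 20.0 in replicate 2 (rank 331). The gene gave 8 of the 14 pooled member regions among the 1000 highest, and the remaining 6 genes gave 1 each.

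**Figure D3:**
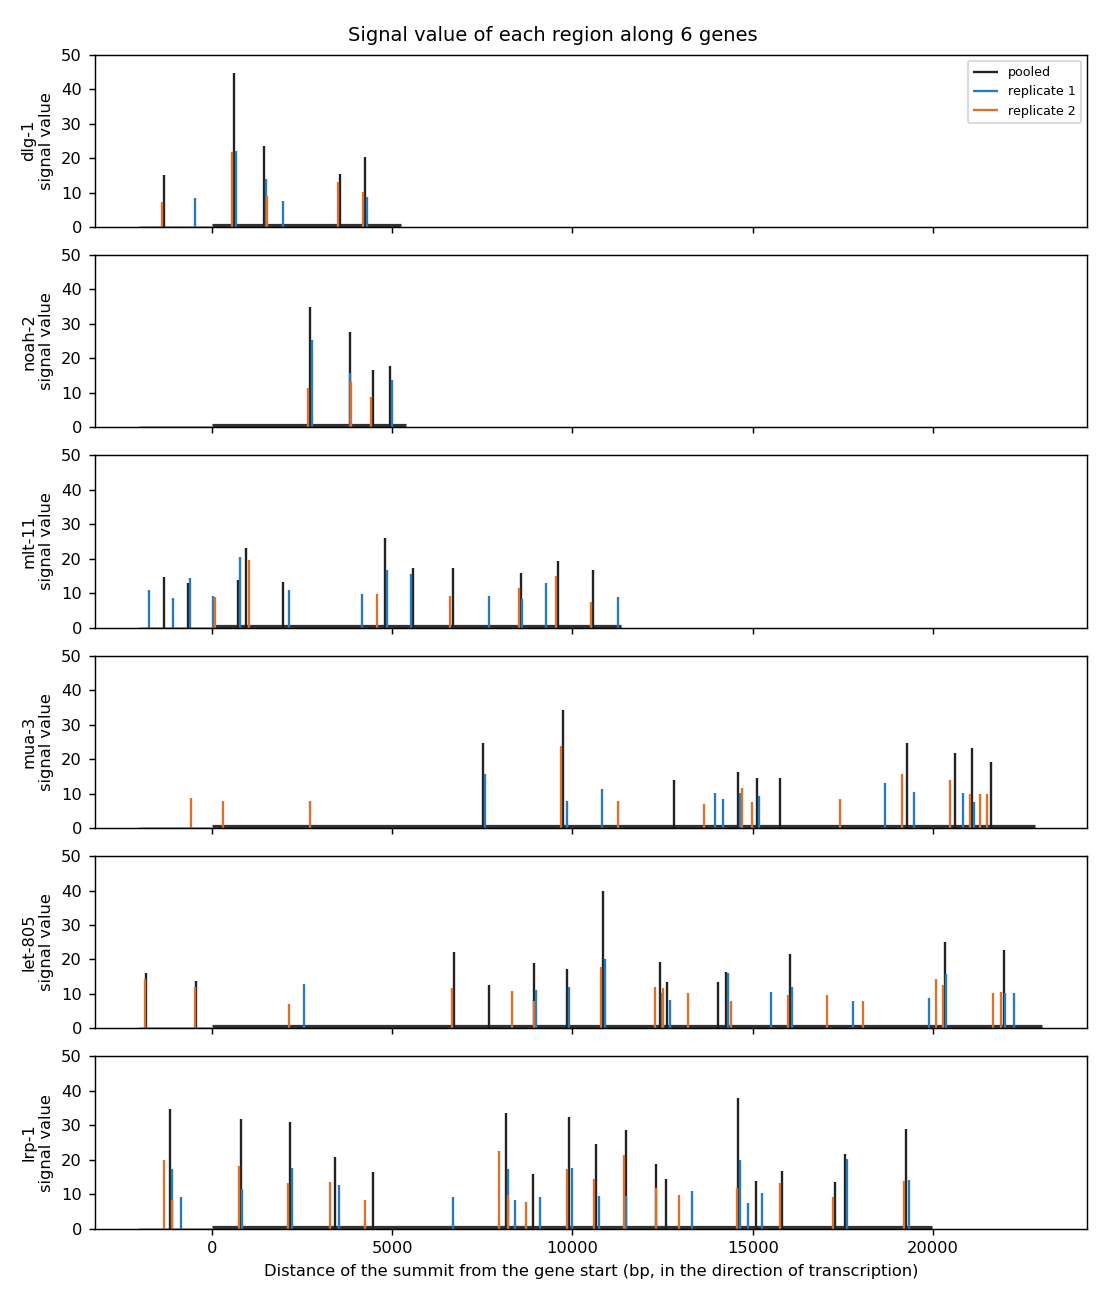
Signal value of every region of dlg-1, noah-2, mlt-11, mua-3, let-805 and lrp-1 by the distance of its summit from the gene start (bp), in the pooled list (black), replicate 1 (blue) and replicate 2 (orange), drawn slightly apart. The thick bar is the gene and the thin line the 2000 bp upstream; dlg-1 has 1 tall region at 620 bp, and lrp-1 has tall regions along its whole length.

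The other moulting genes had at most 1 region each among the 1000 highest of a list. The proprotein convertase gene bli-4 had a pooled region with a signal value of 30.5 (rank 583) in an intron, at 12.5 in replicate 1 (rank 6382) and 16.4 in replicate 2 (rank 1366). The dual oxidase gene bli-3, needed to crosslink cuticle collagens, had a region in a coding exon with 26.4 in replicate 2 (rank 39), the highest rank of the 45 genes in that list. Replicate 1 had no region within 150 bp of it, and the pooled list had 27.0 there (rank 1376). The Kunitz-type protease inhibitor gene mlt-11 was among the 1000 highest of both replicates, but at different places. Replicate 1's region, with 20.5 (rank 312), lay 719 bp into the gene. Replicate 2's, with 19.5 (rank 407), lay 1088 bp into it, and neither had a counterpart within 150 bp in the other replicate. The best pooled rank of mlt-11 was 1699, at another place, 4804 bp into the gene.

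Best pooled ranks of the remaining moulting genes ran from 1373 for mlt-9 to 16352 for bli-5, a Kunitz-type inhibitor gene. Between them were acn-1, which encodes a protein like angiotensin-converting enzyme without its catalytic residues (2801), the NIMA-related kinase gene nekl-2 (4895), mlt-10 (5012), and dab-1, which encodes an endocytic adaptor (6919). Lower still were tsp-15, the tetraspanin gene that acts with BLI-3 (9673), the peroxidase gene mlt-7 (10494) and the leucine-rich repeat gene pan-1 (15438). The median percentile of the 15 genes was 69.5 in the pooled list, 70.6 in replicate 1 and 64.3 in replicate 2. The pooled list held no region of nekl-3, another NIMA-related kinase gene, or mlt-8. For nekl-3 the replicates' best ranks were 5391 and 29524, and mlt-8 had 1 region, in replicate 2 (rank 12307).

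By place in the gene, the density of summits was highest in coding exons. In the pooled list the 45 genes had 254 summits, or 0.471 per kb, against 0.318 per kb over all protein-coding genes. Coding exons held 126 of them at 0.664 per kb (all genes 0.447), the upstream 2000 bp held 37 at 0.411 (0.284), and introns held 83 at 0.353 (0.271). The 3′ UTRs held 7 and the 5′ UTRs 1. Replicate 1 gave 0.628, 0.422 and 0.340 per kb in coding exons, upstream and introns, and replicate 2 gave 0.596, 0.444 and 0.344, so the order of these 3 places was alike in all 3 lists for these genes and for all genes. Of the 14 pooled summits among the 1000 highest, 7 lay in coding exons, 6 in introns and 1 upstream. Over all genes, of 1118 such summits 390 were in coding exons, 283 in introns and 390 upstream. The 2 sets differ in how much of their length is upstream. It was 90 of 539 kb for these genes and 39944 of 104384 kb over all genes. Of the 14, 8 were regions of lrp-1. Replicates 1 and 2 had 8 of 11 and 8 of 13 of their high member summits in coding exons and 1 each upstream. Over all genes 423 of 1144 and 390 of 1099 such summits were in coding exons, and 383 and 378 upstream.

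**Figure D4:**
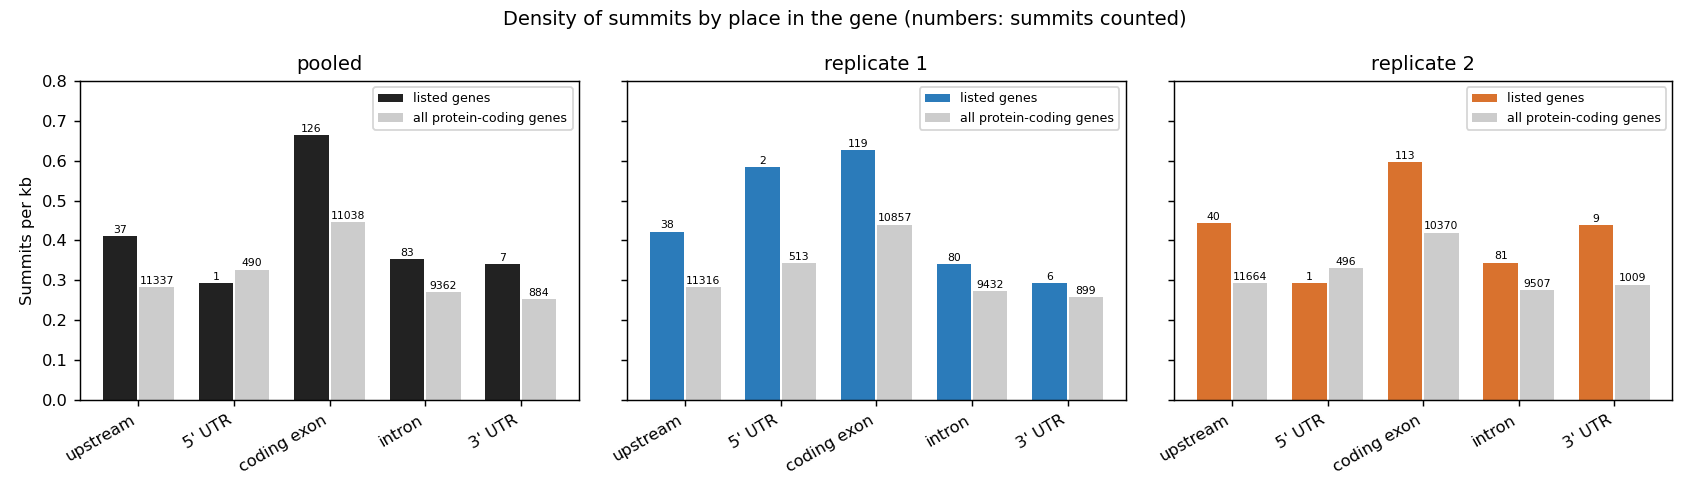
Summits per kb in each part of the gene for the 45 genes (coloured) and for all protein-coding genes (grey) in the pooled list, replicate 1 and replicate 2, with the number of summits above each bar. Coding exons have the highest density in the pooled list for both sets, 0.664 and 0.447 per kb, and the 5′ UTR bars of the 45 genes rest on 1 or 2 summits.

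Ranks by place were less alike between replicates. The median rank of member summits in coding exons was 11020 in the pooled list, 12886 in replicate 1 and 13715 in replicate 2, against 13966.5, 14027 and 14225.5 over all genes. In introns it was 10604 in replicate 1 and 15684 in replicate 2, on either side of the values for all genes, 15251.5 and 15254. Upstream it was 13358 in the pooled list (all genes 15103), 15540 in replicate 1 (14996.5) and 16481 in replicate 2 (15098.5). By the median, upstream summits of these genes thus ranked above those of all genes in the pooled list and below them in each replicate.

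A counterpart within 150 bp was found in replicate 2 for 77 of the 245 member regions of replicate 1 (31.4%), against 23.5% of that whole list. For replicate 2's 244 regions it was 75 (30.7%, whole list 23.6%). Among member regions in a replicate's 1000 highest, 7 of 11 of replicate 1 and 9 of 13 of replicate 2 had a counterpart of any rank (whole lists 39.1% and 41.5%). Over the 78 pooled member regions with a counterpart in both, Spearman's rho of the replicates' signal values was 0.17 and Pearson's r was 0.22. These values are across regions, which share the 2 libraries, and all regions entered through the pooled list. By best rank, 24 of the 45 genes were higher in replicate 1 and 21 in replicate 2. A better rank by over 10 times was found for 4 genes in replicate 1 (noah-2, sma-1, crb-1 and eff-1) and for 2 in replicate 2 (bli-3 and mua-3).

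**Figure D5:**
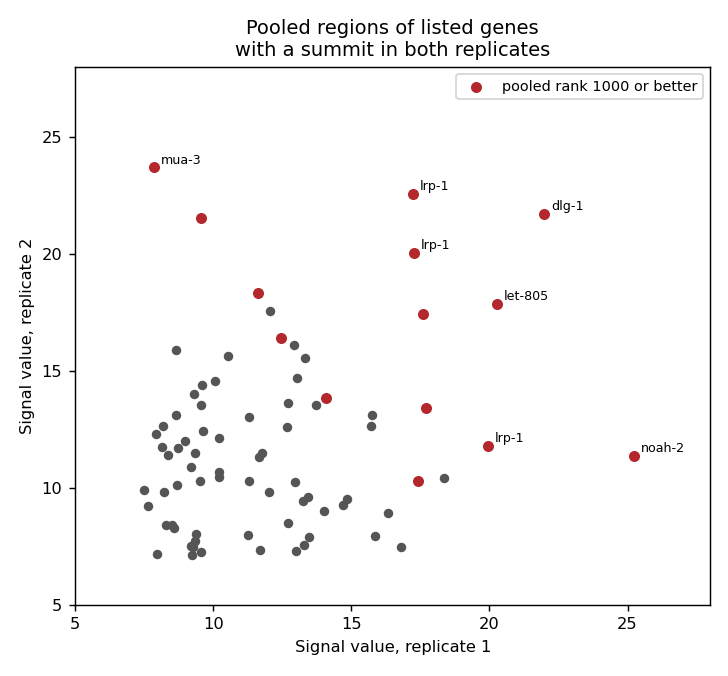
Signal values in replicate 1 and replicate 2 of the 78 pooled regions of the 45 genes with a summit within 150 bp in both replicates, with regions of pooled rank 1000 or better in red. The dlg-1 point, at 22.0 and 21.7, is high in both, while noah-2 (25.2 and 11.4) and mua-3 (7.86 and 23.7) are high in 1 replicate.

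The word TGATAA lay within 100 bp of 36 of the 254 pooled member summits (14.2%), against 16.4% of all pooled regions. In replicate 1 it lay at 38 of 245 (15.5%, whole list 16.4%) and in replicate 2 at 47 of 244 (19.3%, whole list 17.6%), so the members were on both sides of the background. Either strand counted. Any of the 4 words capitalised in the printed sequences, a set that includes TGATAA, was found at 90 pooled member regions (35.4%, whole list 34.1%). Among the 14 highest pooled member regions 4 held TGATAA (all pooled regions in the 1000 highest, 19.6%), at mua-3, bli-4 and 2 regions of lrp-1. In replicate 1 it was 4 of 11 (all regions in that list's 1000 highest, 16.5%) and in replicate 2 it was 2 of 13 (20.1%), so the replicates lay on opposite sides of their lists. The median GC content of the 201 bp around member summits was 41.3% in the pooled list, and that of the whole list was 38.8%.

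Other genes were taken from a list of 56 symbols placed under the same structures or under moulting. Of these, 54 were in the annotation. Membership was by listing only, and whether each acts in the epidermis was not checked. In the pooled list 12 of the 54 had a summit among the 1000 highest (22.2%, like length 10.2%), in replicate 1 there were 8 (14.8%, like length 10.6%) and in replicate 2 there were 14 (25.9%, like length 10.5%). The background over all genes was 5%, 5.18% and 4.97%, as above. The 12 were the polarity gene lgl-1 (best pooled rank 45), the type IV collagen gene emb-9 (163), the lipocalin genes lpr-1 (109) and lpr-3 (617), the matrix genes let-4 (928) and cut-5 (872), the nuclear receptor gene nhr-23 (244), the kinase gene nekl-1 (420), the hedgehog-related qua-1 (611), the chitin synthase gene chs-1 (746), and the collagen-modifying enzyme genes phy-2 (478) and pdi-2 (908). None of the 12 was among the 1000 highest of both replicates, whereas 9 were in 1 of them. Named after its values were seen, unc-52, the perlecan gene of the basement membrane, was among the 1000 highest of both replicates (ranks 120 and 811) with a best pooled rank of 1099. None of the 54 had an IDR region.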

How the data were processed

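ChIP-seq regions of tagged ELT-3 in L2 larvae were used for 2 replicates of 1 group and for both pooled. The authors deposited each list in ce10 and ce11, and the ce11 lists were used because their coordinates match the reference. Per the submitters' file listing, the pooled list and each replicate's list were called against a control alignment, and the IDR list was derived from those 3. The deposited signal value is the peak caller's score, with no stated scale, and the deposited −log10 q-value was used for an alternative ranking and for the lowest q. The aligner, the peak caller and its thresholds were not given in the sources used here. Read depth is unknown, so no interval for it is given.

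Regions were ranked by signal value within each list. Genes were the protein-coding genes of Ensembl release 115 (WBcel235), and a summit counted for every gene whose body or upstream 2000 bp held it. Of the pooled member regions 15 of 254 also lay in the window of another protein-coding gene. Place was taken over all transcripts of the gene, coding exon first, then UTR, then intron. The percentile counts the share of genes of like length with a lower best rank, ties counting in part. The motif window was 100 bp on each side of the summit. Members and lists were chosen with earlier results of these data known. Named were members with a summit among the 1000 highest of any list, the best of each role, and other listed genes among the pooled 1000 highest; the remaining members are given by best rank. The scripts were tested on simulated data. Alternatives changed the number of regions, the upstream window, the ranking, the summit distance, the range of like length, the motif and the replicate. Python 3.11.15, numpy 2.4.6, pandas 2.3.3, scipy 1.17.1 and matplotlib 3.10.9 were used.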

Additional observations from a re-analysis of the deposited data

How the results depend on the processing

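Of 88 alternatives over 11 values, 57 kept a value close to the one reported, meaning a count within 1.5 times of it, or a share, percentile or density within 1 SD of the 2 replicates. The cause of the changes was not tested. With 2000 and 5000 regions per list the genes with a high summit numbered 15 and 23 in the pooled list, 14 and 27 in replicate 1 and 13 and 18 in replicate 2, since more regions are admitted. Shared by all 3 lists were 1 gene with 500 regions and 6 with 5000, where the share over all genes was not computed. The other listed genes numbered 6 of 54 with 500 regions (background 2.59%) and 37 of 54 with 5000 (background 21.8%). Their like-length share was not computed at these settings. Without the 11 members on chromosome I, which include the high genes lrp-1, bli-4 and vab-10, 4 genes were high in the pooled list. With 5000 bp upstream 1 gene had an IDR region, which was cut-2. Using 1 replicate alone gave 8 genes in place of the pooled list's 7, and 8 to 14 other listed genes in place of 12. Asking that a region be shared by the pooled list and only 1 replicate gave 4 genes, in place of the 3 shared by all lists. The median percentile was 78.6 against all genes whatever their length, and 60.4 to 68.9 with 1 replicate. The upstream share of member regions, 14.6% in the pooled list, was 18.3% without chromosome I, 12.7% in the 5000 highest, 6.87% with 1000 bp and 15.5 to 16.4% with 1 replicate. The TGATAA share was 34.3% for GATAA, 35.4% for the 4 words, 7.09% within 50 bp, 26% in whole regions, 11.1% in the 5000 highest and 15.5 to 19.3% with 1 replicate. The density of regions was 0.465 per kb without chromosome I and 0.453 to 0.455 with 1 replicate. Leaving out lrp-1, chosen after seeing the data, gave 0.456 per kb, 15.3% upstream and 6 high regions in place of 14. No paired analysis was possible because the replicates belong to 1 group. The unknown read depth limits every rank, and a gene with no region in a list may have gone undetected.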
